A study of Mus musculus with 10 samples.

Results

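Chromosome 15 carried 10033 of the 153924 accessible sites that were listed for NG3 cells, an immortalized mouse embryo fibroblast line, by ATAC-seq. ATAC-seq marks open chromatin by the cuts of the Tn5 transposase. The sites were taken by their chromosome alone. Chromosome 15 was chosen for its density in this same list, so its density and all measures of the listed sites are given as descriptions and were not tested. It was set beside the 17 other autosomes without chromosome 10, whose density was also above that of the rest. These 17 carried 129335 sites and chromosome 10 carried 10715. With 1 chromosome against 17, an exact permutation test could not give a p below 0.0556, and the spread among the 17 is given in its place.

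NG3 is 1 clone in which exon 4 of both Ash2l alleles was deleted by a Cre-ER recombinase and in which a lentivirus supplied human ASH2L, fused to an HA-tagged FKBP12-F36V domain. ASH2L is needed by the KMT2 enzymes, which place methyl groups on lysine 4 of histone H3, and dTAG-13 joins the FKBP12-F36V domain to a ubiquitin ligase, so that the fusion protein is degraded. The 10 libraries formed 5 groups of 2 replicates: control cells (titled WT in the labels, and given ethanol according to the methods) and cells that received dTAG-13 and were collected after 30 min, 4 h, 8 h or 24 h, all of them carrying the deletion and the fusion. The list joins the sites of all groups and gives a chromosome, a start and an end for each site, so no value of a single library, time point or replicate enters the results, and sequencing depth could not be taken into account.

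Accessible sites fall into promoters and into sites away from them. Promoters with a CpG island, a stretch rich in CpG dinucleotides, are open in most cell types, whereas distal sites, many of which are enhancers, differ far more between cell types. In fibroblasts, enhancers are often bound by AP-1 (Fos and Jun dimers) and TEAD factors, while CTCF marks insulators and the anchors of chromatin loops. Mouse chromosome 15 holds Myc and its non-coding neighbour Pvt1, the Hoxc cluster, the type II keratin cluster and Kmt2d, which encodes a methyltransferase of lysine 4 of histone H3 that works with ASH2L.

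To show what these sites look like, the widest distal site with an AP-1, a TEAD or a CTCF match in its middle 200 bp and the widest promoter site with an EGR match are given by 60 bases on either side of the centre of the match. Capitals mark the match, the sequence is the plus strand of mm10, and AP-1 stands for TGACTCA or TGAGTCA, TEAD for GGAATGT and EGR for GCGTGGGCG or GCGGGGGCG, each on both strands. The AP-1 sequence lay in an intron of Ly6f, within a site of 2478 bp (chr15:75269967-75272444). The TEAD sequence lay in an intron of Eif3h, within a site of 2886 bp (chr15:51853175-51856060). The CTCF sequence was intergenic, 11585 bp from the nearest start, that of Pim3, measured from the middle of a site of 1439 bp (chr15:88875786-88877224). The EGR sequence lay at the start of Sema5a, which encodes a guidance molecule of the semaphorin family, within a site of 3387 bp (chr15:32243130-32246516).
AP-1 at chr15:75271096-75271216: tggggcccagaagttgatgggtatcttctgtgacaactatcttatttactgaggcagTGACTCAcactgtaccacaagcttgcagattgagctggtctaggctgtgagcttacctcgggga
TEAD at chr15:51854587-51854707: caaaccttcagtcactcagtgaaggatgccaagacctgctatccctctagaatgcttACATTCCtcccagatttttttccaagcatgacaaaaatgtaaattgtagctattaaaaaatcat
CTCF at chr15:88876494-88876614: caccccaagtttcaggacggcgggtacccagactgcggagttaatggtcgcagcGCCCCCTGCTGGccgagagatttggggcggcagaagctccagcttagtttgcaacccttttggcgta
EGR at chr15:32244693-32244813: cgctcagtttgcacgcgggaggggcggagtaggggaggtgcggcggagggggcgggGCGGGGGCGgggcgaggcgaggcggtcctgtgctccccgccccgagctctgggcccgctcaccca

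The promoter of Kmt2d is given because its gene product belongs to the complexes that lose ASH2L in these cells. It is shown as the 250 bases before the start in RefSeq (GRCm38.p6), on the minus strand, with each CpG in capitals.
Kmt2d at chr15:98871206-98871455: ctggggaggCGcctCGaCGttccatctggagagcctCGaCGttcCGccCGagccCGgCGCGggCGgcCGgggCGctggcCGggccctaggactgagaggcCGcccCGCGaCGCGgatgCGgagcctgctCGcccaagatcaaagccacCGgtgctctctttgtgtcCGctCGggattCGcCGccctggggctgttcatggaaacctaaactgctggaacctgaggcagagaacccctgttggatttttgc
These 250 bases held 26 CpG dinucleotides at a GC content of 67.6% and lay wholly inside a site of 1949 bp (chr15:98870946-98872894). No match of AP-1, TEAD, CTCF or EGR, nor of the E-box CACGTG, was found in them. Among all RefSeq promoters, taken with 50 bases after the start, 5.20% held an AP-1 match and 3.47% an EGR match, and on chromosome 15 these shares were 5.13% and 4.91% of 936.

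Accessible sites were dense on chromosome 15. It made up 4.20% of the sequenced bases of the autosomes but carried 6.68% of their sites. Per sequenced Mb it carried 99.7 sites, compared to 49.2 to 76.1 on the 17 other autosomes (median 59.9, mean 60.2 ± 6.86, SD over 17 chromosomes), a ratio of 1.66 to their median. The next chromosome in this order was chromosome 11. The first part of the chromosome up to its midpoint carried 88.9 sites per Mb and the second part 110, both above the same parts of the 17 others, which reached 71.3 and 90.9.

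Most, though not all, of the chromosome showed this density. Of its 101 bins of 1 Mb, 81 held more sites than the median bin elsewhere on the 17 autosomes (60 sites per Mb) and 41 exceeded their 95th percentile (116 sites per Mb). The median bin of chromosome 15 held 107 sites per Mb. In bins of 5 Mb, the lowest densities were 44.2 sites per Mb at chr15:15000001-20000000 and 48.8 at chr15:45000001-50000000, both with 2 coding gene starts and a GC content of 36.4%. The highest was 152 at chr15:75000001-80000000, with 159 coding gene starts and a GC content of 49.1%.

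**Figure D1:**
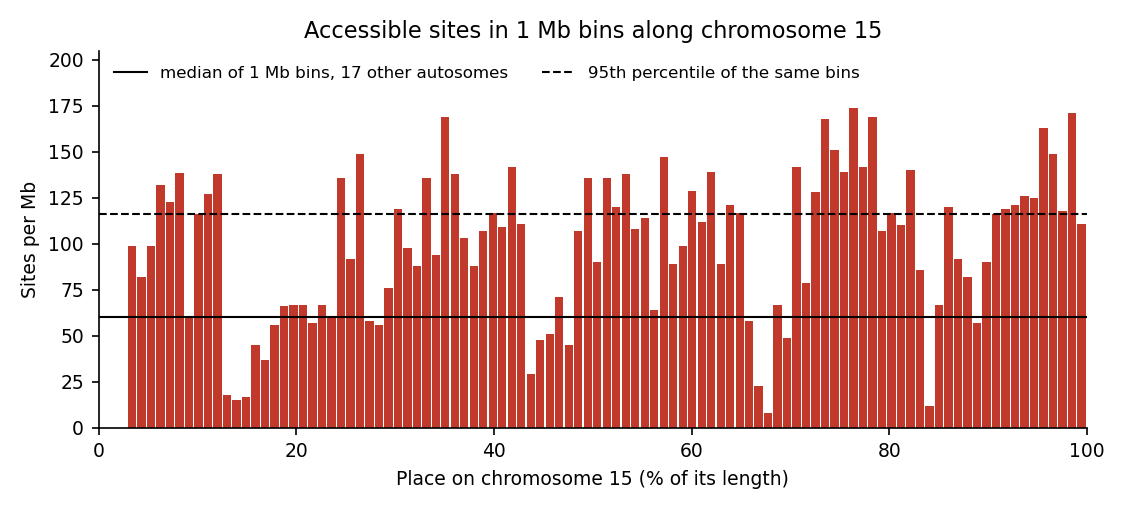
Sites per sequenced Mb (vertical axis) in each 1 Mb bin of chromosome 15 (bars), against the place of the bin in percent of the chromosome's length (horizontal axis). The solid line is the median (60) and the dashed line the 95th percentile (116) of the 1 Mb bins of the 17 other autosomes. Bars of 81 of 101 bins rise above the solid line, and the lowest bin holds 8 sites per Mb.

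The gene content of the chromosome was unremarkable beside its density of sites. It carried 7.80 coding genes and 8.83 CpG islands per Mb at a GC content of 42.0%, which gave it rank 10 of 18 autosomes in each of these measures. Its bins were therefore compared with bins of like content. Bins without any coding gene start held 49.2 sites per Mb, compared to a median of 25.4 and at most 37.4 on the other autosomes with such bins. Bins with over 15 coding gene starts held 139 sites per Mb, compared to a median of 87.5 and at most 107. The ratio to the median was larger in gene-free bins (1.94) than in gene-rich ones (1.58), and likewise larger in the GC-poorest class of bins (2.29, from 61.0 against 26.6 sites per Mb) than in the GC-richest (1.44, from 126 against 87.4), the 4 classes being divided by the quartiles of the other autosomes.

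**Figure D2:**
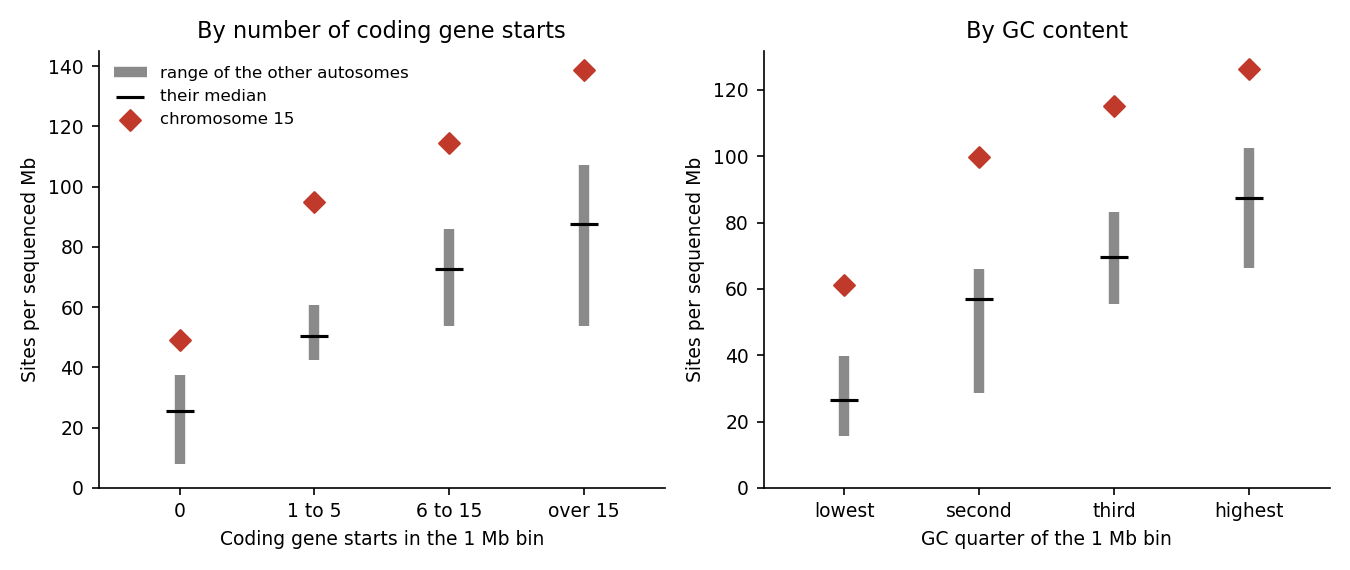
Sites per sequenced Mb (vertical axes) in 1 Mb bins grouped by their coding gene starts (left) and by their GC content, divided at the quartiles of the other autosomes' bins (right). Diamonds are chromosome 15, grey bars the range and black ticks the median over the other autosomes. The diamond lies above the grey bar in all 8 groups, from 49.2 against at most 37.4 without a gene start to 139 against at most 107 with over 15.

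The sites of chromosome 15 were narrower than those of the 17 other autosomes, a trait that it shared with chromosome 10. A median of 561 bp was measured (order statistics of the 10033 sites gave a 95% interval of 549 to 573 bp), with quartiles of 308 and 909 bp, while the medians of the 17 other autosomes ranged from 610.5 to 648 bp. On chromosome 10 the median was 566 bp and the first quartile 323 bp. Divided by the quartiles of the whole list (359, 619 and 959 bp), the narrowest class made up 31.0% of the sites of chromosome 15 and 22.5 to 24.9% of those of the others. All classes were nevertheless denser. The narrowest held 30.9 sites per Mb against a median of 14.5, the second 23.5 against 15.2, the third 23.0 against 15.0 and the widest 22.2 against 15.3, where the highest other chromosome held 21.1. The difference in density was thus largest for narrow sites, with a ratio of 2.13, and smallest for wide ones, with a ratio of 1.46.

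The higher density was found in each kind of place, but more so away from promoters. A site was called a promoter site when it came within 1 kb of an annotated transcript start, and the remaining sites were divided by the place of their middle. Promoter sites numbered 1257, or 12.5% of the sites of chromosome 15 (95% Wilson interval 11.9 to 13.2%, counting error only), whereas on the 17 others they made up 13.7 to 24.4%. Per Mb of chromosome there were 12.5 promoter sites, within the range of 8.26 to 16.3 on the other autosomes. Distal sites numbered 87.2 per Mb, above the others' range of 40.9 to 60.9.

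Divided by the bases of each class, all 4 classes were denser than on each of the 17 other autosomes. Promoter windows held 224 sites per Mb of such windows (others 141 to 207), exons 102 (47.8 to 75.5), introns 108 (54.3 to 72.5) and intergenic sequence 79.3 (34.8 to 59.8). Chromosome 10 also lay above the others' ranges in introns (80.9) and intergenic sequence (73.6). In promoter windows (199) and exons (75.4) it lay within them. Introns contained 4366 sites, intergenic sequence 4098 and exons 312. Distal sites had a median width of 525 bp (others 560.5 to 587 bp, chromosome 10 524 bp) and promoter sites one of 1009 bp, which was within the others' range of 969 to 1112 bp.

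**Figure D3:**
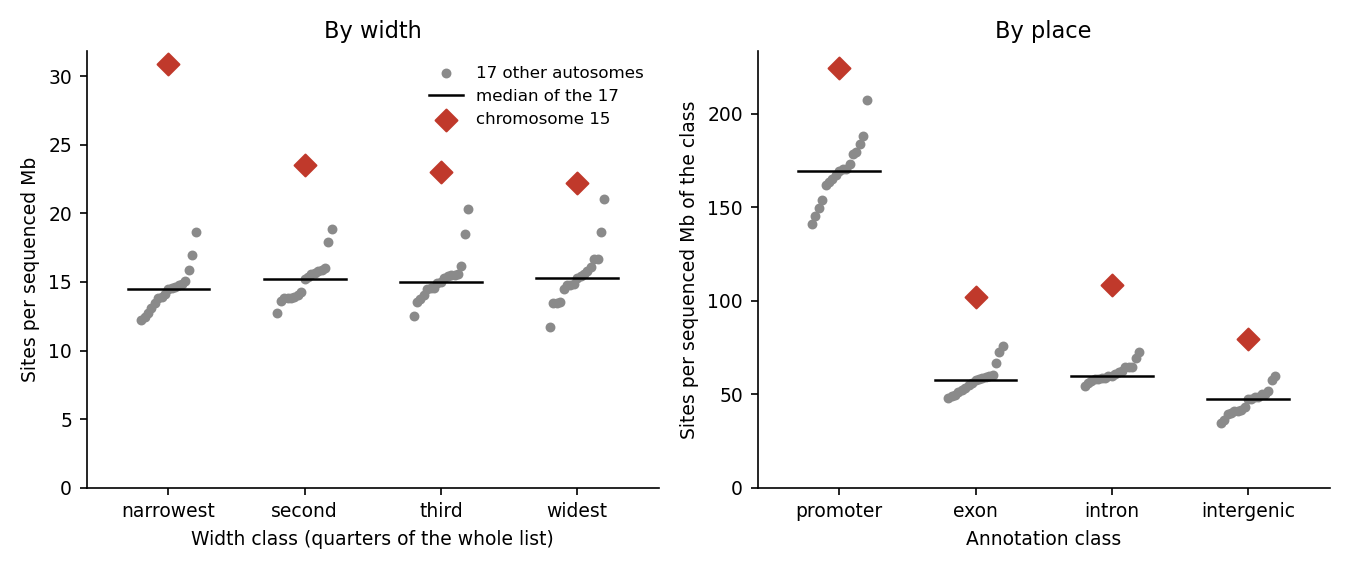
Sites per sequenced Mb in 4 classes of site width, divided at the quartiles of the whole list (left), and per sequenced Mb of each annotation class (right). Grey points are the 17 other autosomes in ascending order, black lines their median and diamonds chromosome 15. The diamond stands above all grey points in each group, farthest in the narrowest class (30.9 against a median of 14.5) and nearest in the widest (22.2, where the highest other autosome reached 21.1).

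Neighbouring sites lay closer together, a measure that depends on the density for which chromosome 15 was chosen. From one site to the next there were 5552 bp at the median (others 6416 to 8191 bp), and 13.2% of neighbours were at most 1 kb apart (others 9.05 to 11.0%). Sites with no neighbour within 3 kb made up 49.1% (others 54.2 to 61.0%). Chromosome 10 also lay outside these ranges, with 6155 bp, 12.4% and 52.7%, respectively. Chains of 5 or more sites, each at most 3 kb from the next, numbered 35, and 10 to 35 on the 17 other autosomes, while chromosome 10 had 45. The longest chain held 10 sites over 17649 bp and lay at Slc48a1, which encodes a heme transporter (chr15:97772870-97790518). Of 4 chains with 7 sites, the first lay in Trio, which encodes a guanine nucleotide exchange factor (chr15:27782505-27792884).

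The 3 widest sites were all promoters with a CpG island. The widest, of 3753 bp, covered the start of Atp5g2, which encodes subunit c of the mitochondrial ATP synthase (chr15:102670464-102674216). The second, of 3574 bp, lay at Npr3, the clearance receptor for natriuretic peptides (chr15:11903929-11907502). The third, of 3463 bp, lay at Nipbl, which loads cohesin onto DNA (chr15:8443583-8447045).

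The densest and the sparsest parts differed in their genes. The bin with most sites was chr15:79000001-80000000 with 174 sites and 34 coding gene starts. Its genes included Sox10, a regulator of neural crest cells, Maff, a small Maf factor, the Polycomb genes Cbx6 and Cbx7, and Pdgfb, a mitogen for fibroblasts. The second, chr15:102000001-103000000 with 171 sites, held Sp1, the retinoic acid receptor gene Rarg and most of the Hoxc cluster. The third, chr15:36000001-37000000, reached 169 sites with 9 coding gene starts, among them Pabpc1, which encodes a poly(A)-binding protein, and Ywhaz, a member of the 14-3-3 family. It was tied with chr15:81000001-82000000, which also held 169 sites, with 21 coding gene starts. In the highest bin of the 17 other autosomes 157 sites per Mb were found.

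The sparsest bins held 8 sites (chr15:70000001-71000000), 12 sites (chr15:87000001-88000000) and 15 sites (chr15:14000001-15000000). The first and the third contained no coding gene start, and the second only that of Fam19a5, which encodes a small secreted protein. The longest stretch without a site measured 1226 kb and contained no coding gene (chr15:69326785-70553049).

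Some stretches without sites coincided with revised parts of the assembly. GRCm38.p6 holds fix patches, separate sequences that correct a stretch of a chromosome, and 5 of them are named for chromosome 15. These were placed on the chromosome by exact matches of 100 bases, after the long stretches without sites had been seen. The 5 stretches together spanned 1694 kb (1496 kb of them sequenced) and held 0 sites, compared to 101 sites per Mb outside them. Of the fix patches of the 17 other autosomes, 41 could be placed, and 39 of these stretches held 0 sites. The list also names sequences outside the chromosomes, which were not paired with the patches here. The absence of sites from these stretches coincides with the patches and cannot be read as closed chromatin from this list. Whether reads were assigned to the patches was not tested.

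The stretch chr15:9054779-9265873 held the cell cycle gene Skp2, the substrate receptor of an SCF ubiquitin ligase, together with Nadk2 and Lmbrd2. The stretch chr15:38582635-39142583 held Fzd6, a Wnt receptor, and Atp6v1c1, a subunit of the vacuolar proton pump, among 6 coding genes. The stretch chr15:57983529-58517179 held the zinc finger gene Zhx1, the bromodomain ATPase gene Atad2 and Fbxo32, which encodes atrogin-1, among 10 coding genes. The last of these, Fer1l6, starts in the stretch but extends beyond it and held 24 sites in its body. The stretches at chr15:3050519-3185618 and chr15:103662568-103916828 held no coding gene and Mucl1 with Mucl2, respectively. Apart from Skp2, Fzd6, Zhx1 and Atad2, which belong to the gene lists, these genes were named after the stretches had been seen.

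Coding genes had a promoter site more often than on most other autosomes, a measure that depends on the density for which chromosome 15 was chosen. Of its 785 coding genes, 635 or 80.9% had such a site (Wilson 95% interval 78.0 to 83.5%, counting error only). On the 17 others 71.7% of the 19001 coding genes had one, and single chromosomes ranged from 58.5 to 83.8%. The share depended on CpG islands. With an island at a start, 495 of 518 genes or 95.6% had a site, within the others' range of 92.0 to 97.2%. Without one, 140 of 267 genes or 52.4% had a site, where the others ranged from 25.7 to 57.1% with a median of 39.9%. Of the 23 genes with an island but no site, 14 lay in the patched stretches, and outside these stretches 98.2% of 504 genes with an island had a site. The other 9 were Ly6k, Cacna1i, 1700029P11Rik, Mov10l1, H1fnt, Olfr279, Tmprss12, Krt83 and Krt18, named here after their values were seen. Among them, Cacna1i encodes a neuronal calcium channel, H1fnt a linker histone of spermatids and Mov10l1 a helicase of the germline.

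Gene groups were then described by their lists. Their shares are to be read against the 80.9% of all coding genes of chromosome 15. They are also to be read against the 95.6% of its coding genes with an island and the 52.4% of those without. The 7 lists chosen by role comprised 155 different genes, of which 148 (95.5%) had a promoter site. Of the 7 genes without a site, Zhx1, Atad2, Fzd6 and Skp2 lay in patched stretches, and the others were Hotair, Csf2rb2 and Csf2rb. In 3 families of clustered genes, few of which had an island, 22 of 55 members (40.0%) had a promoter site.

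The list of transcription factors, which also takes in genes of other roles such as Trib1 and Csdc2, had a promoter site at 31 of 32 genes. Zhx1 was the exception. The widest, of 3045 bp, lay at Klf10, a Krüppel-like factor induced by TGF-beta. Zfpm2, a cofactor of GATA factors, carried the most sites in its body, 50 in 450 kb, followed by Trps1, a GATA-type repressor, with 40. In the Hoxc cluster, whose genes specify position along the body axis, 9 of 10 members had a promoter site, the non-coding Hotair being the exception. Hoxc5 had the widest, of 2221 bp, and the most body sites, 12, although its annotated body of 50.0 kb includes Hoxc9, Hoxc8 and Hoxc6.

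The list of chromatin regulators showed a promoter site at 25 of 26 genes, all but Atad2. It also takes in genes of other roles, such as Csnk1e, Sgsm3, Desi1 and Smug1. Nipbl had the widest, of 3463 bp, and 25 sites in its body, and Arid2, which encodes a subunit of the PBAF remodeller, followed with 3308 bp. At Kmt2d, the island promoter site of 1949 bp covered 4 transcript starts, counting those of the gene on its other side. A second site of 318 bp lay within 1 kb of a further start (chr15:98869911-98870228). The gene body held 6 more sites of 201 to 412 bp, 3 of them with their middle in an exon.

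All 33 genes of the matrix, adhesion and cytoskeleton list had a promoter site, 10 of them without an island. The widest, of 2841 bp, was that of Myo10, a myosin of filopodia. Ctnnd2, which encodes delta-catenin, had 68 sites in its body, Ext1, an enzyme of heparan sulfate synthesis, had 57 and Trio had 56. The fibroblast matrix genes Col14a1 and Has2, for collagen XIV and hyaluronan synthase, had promoter sites of 1166 and 1455 bp without an island.

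The list of growth factors, ligands and receptors had a promoter site at 24 of 27 genes. It also takes in other signalling genes, such as Prkaa1, Rictor, Deptor and Ndrg1. Npr3 had the widest, of 3574 bp, and Pdgfb the next, of 3443 bp. The growth hormone receptor gene Ghr had 39 sites in its body. Besides Fzd6, the genes without a promoter site were Csf2rb2 and Csf2rb, receptor subunits of blood cells, which held 1 and 4 sites in their bodies. Il7r and Il2rb, also receptor genes of blood cells, had promoter sites of 1972 and 1125 bp.

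The list of replication, cell cycle and translation genes had promoter sites at 23 of 25 genes, all but Skp2 and Atad2. Its widest lay at Pim3, a serine/threonine kinase gene, with 2735 bp. Eif3h, a subunit of a translation initiation factor, held 15 sites in its body, the most in this list. The ribosomal protein genes Rpl30, Rpl8 and Rpl3 had promoter sites of 1812, 1210 and 2291 bp.

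Members of the 3 families rarely had an island (8 of 55), so their shares are to be read against the 52.4% of genes of chromosome 15 without an island that had a promoter site. The counts nevertheless include the members with an island. The keratin list took in the type II keratins, the basic keratins of epithelia, and the acidic type I gene Krt18 beside their cluster. A promoter site was found at 9 of its 26 genes, Krt18 not among them. Of these 9, 3 belonged to the 5 genes with an island and 6 had none. The widest promoter site lay at Krt80 with 2260 bp, which also carried the most body sites, 5. Krt77 and Krt90, the longest genes without one, held 1 and 2 sites in their bodies. In the Ly6 family of small membrane-anchored proteins 7 of 17 genes had a promoter site, the widest at Ly6e with 1699 bp. Of these 7, 2 belonged to the 3 genes with an island and 5 had none. Ly6h carried the most body sites, 4, and Ly6f held the AP-1 sequence given above in its single body site, yet had no promoter site. In the apolipoprotein L family, which had no island, 6 of 12 genes (50.0%) had one, close to the share of genes without an island, the widest at Apol8 with 2109 bp, whereas Apol7b had 4 body sites and no promoter site. Members of these families are similar in sequence, and reads that match several of them could be lost or moved between them, which was not tested.

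**Figure D4:**
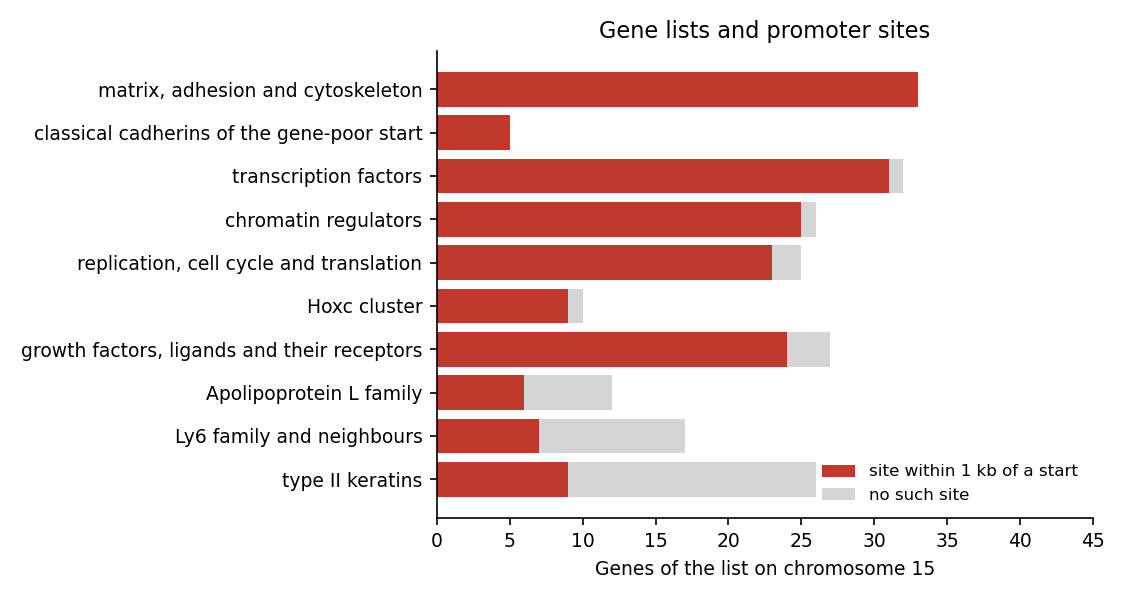
Number of genes on chromosome 15 in each list (horizontal axis), divided into those with a site within 1 kb of a start (red) and those without (grey). All 33 genes of the matrix, adhesion and cytoskeleton list had such a site, but only 9 of the 26 genes of the keratin list, which includes the type I gene Krt18.

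Gene bodies of chromosome 15 held a median of 3 sites, and 123 of the 785 coding genes held none. Coding gene bodies together contained 4921 or 49.0% of the sites. The most sites were found in very long genes: Cdh12 held 89 sites in 1140 kb (chr15:20449265-21589533), Csmd3 76 in 1211 kb (chr15:47580637-48792063), Cdh18 75 in 925 kb (chr15:22549022-23474418), Ctnnd2 68 and Samd12 59. Cdh12 and Cdh18 encode cadherins of the nervous system, and Csmd3 a large membrane protein expressed in brain. Cdh12 and Cdh18 lie with Cdh6, Cdh9 and Cdh10 in the gene-poor first part of the chromosome, and all 5 of these cadherin genes had a site within 1 kb of a start, 1 of them with an island. The widest of these sites was that of Cdh10, with 1984 bp.

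Per length, other genes stood first. Among bodies of at least 100 kb, Rspo2, which encodes an R-spondin that enhances Wnt signalling, held 33 sites or 22.0 per 100 kb. Mrtfa, the coactivator of serum response factor that senses actin, followed with 37 sites or 20.7 per 100 kb, and Ext1 with 57 or 20.2. Ano6, a lipid scramblase gene, held 36 sites or 19.6 per 100 kb. Csmd3, in comparison, held 6.27 and Cdh12 7.81 per 100 kb, below the 108 sites per Mb of introns of the whole chromosome.

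Myc, which encodes a transcription factor that drives cell growth, had 4 sites within 1 kb of a start. The main one, of 1285 bp, covered 4 annotated starts and a CpG island (chr15:61984735-61986019). A narrow site of 231 bp lay upstream (chr15:61984312-61984542), and sites of 1094 and 585 bp followed in the gene (chr15:61986176-61987269 and chr15:61987622-61988206). From the start of Myc to the end of Pvt1, 393 kb held 67 sites, or 171 per Mb, with a median width of 730 bp. In the 1 Mb before Myc there were 96 sites and in the 1 Mb after Pvt1 110, close to the 99.7 per Mb of the chromosome. Pvt1 alone held 59 sites, of which 8 were promoter sites.

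The sites also differed in the sequence at their middle. Of the 8776 distal sites of chromosome 15, 1247 or 14.2% (95% Wilson interval 13.5 to 15.0%) had an AP-1 match in their middle 200 bp, below each of the 17 other autosomes (14.9 to 17.8%). A CTCF match was found in 178 or 2.03% (1.75 to 2.34%), again below the others' range of 2.18 to 4.12%. Chromosome 10 had similarly low shares, with 14.9% for AP-1 and 2.11% for CTCF. TEAD matches, in 6.15% of distal sites, lay within the others' range of 5.71 to 7.12%. E-box matches, in 2.09% of distal sites, lay below the others' range of 2.18 to 3.19%, whereas chromosome 10 had 2.48%. EGR matches were found in 24 promoter sites or 1.91% (others 1.54 to 3.39%) and in 8 distal sites. A match is a run of letters and was not tested for binding.

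The matches were also counted along the chromosome, where their share inside sites depends on the density for which chromosome 15 was chosen. Sites covered 6.71% of its sequenced bases, and 3.48 to 5.71% of those of the 17 others, a ratio of 1.55 to the median. AP-1 matches occurred 166 times per Mb on chromosome 15, and 158 to 174 times on the others. Of these, 19.2% lay inside a site, compared to 11.4 to 15.7% on the 17 other autosomes, a ratio of 1.49 to the median. Of the 486 CTCF matches of chromosome 15, 328 or 67.5% lay inside a site (others 46.7 to 61.8%), a ratio of 1.23. Both ratios were thus below that of the covered bases. TEAD matches lay inside a site in 11.6% (others 5.97 to 8.69%) and E-box matches in 9.03% (others 5.50 to 8.11%). EGR matches were the exception, with 46.4% inside a site, within the others' range of 40.7 to 56.7%. Distal sites with an AP-1 match numbered 12.4 per Mb against a median of 7.94, while those with a CTCF match numbered 1.77 against 1.66, which was rank 4 of 18.

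**Figure D5:**
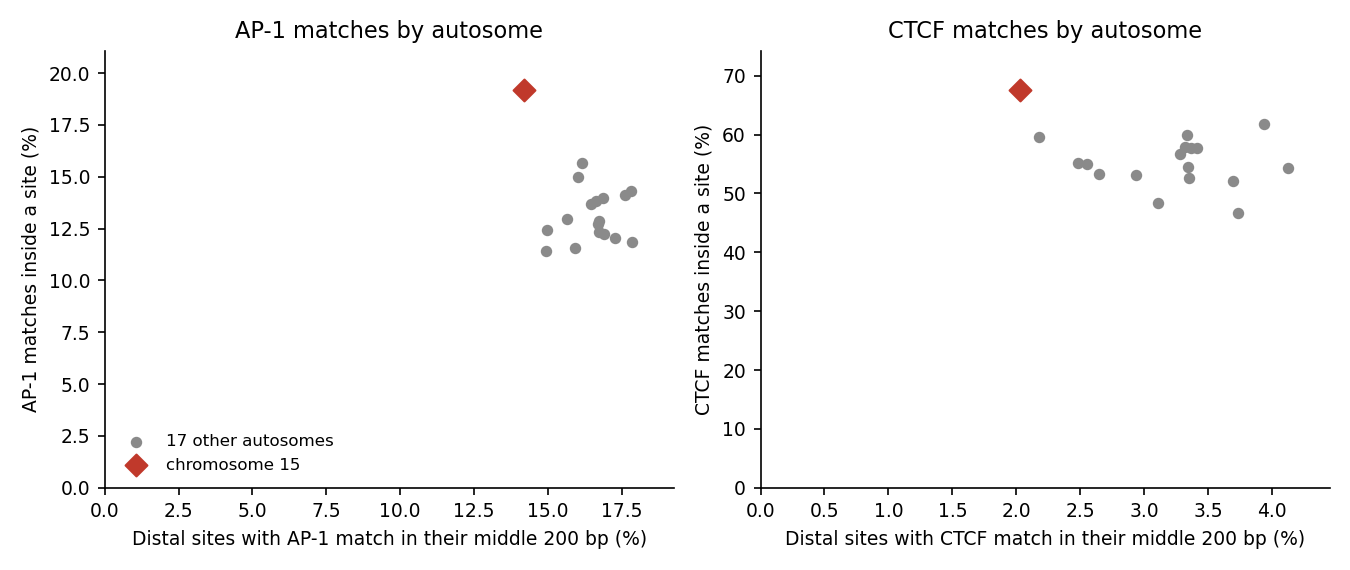
Share of distal sites with a match in their middle 200 bp (horizontal axes, percent) against the share of all matches of the chromosome that lie inside a site (vertical axes, percent), for AP-1 (left) and CTCF (right). Points are the 17 other autosomes and the diamond is chromosome 15, which lies left of and above all of them, at 14.2 and 19.2% for AP-1 and at 2.03 and 67.5% for CTCF.

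The low share of AP-1 and CTCF matches was found in sites narrower than the list's median. Among distal sites of the narrowest class, 10.1% had an AP-1 match (others 12.7 to 15.6%) and 0.622% a CTCF match (others 1.18 to 2.22%). In the second class these shares were 13.9% (others 14.4 to 19.1%) and 2.41% (others 2.71 to 5.63%), and in the third, 18.2% (others 17.01 to 21.1%) and 4.38% (others 3.70 to 7.44%). In the widest class the shares were 16.8% for AP-1 (others 14.5 to 19.1%) and 0.951% for CTCF (others 0.438 to 1.47%), so that the third and the widest class lay within the others' ranges. Narrow distal sites also lay in repeats more often, with 21.5% of their middles in soft-masked sequence (others 16.3 to 21.4%). In the second and the third class it was 16.3% (others 13.4 to 15.8%) and 15.0% (others 11.6 to 14.4%). For all distal sites this share was 17.2%, above the others' range of 14.3 to 16.1%, and on chromosome 10 it was 17.5%.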

How the data were processed

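According to their methods, the authors used Trim Galore for trimming, BWA for alignment to mm10, SAMtools for filtering, Picard for joining replicates, MACS2 for peaks and DESeq2 for normalization. Versions, the peak threshold, any Tn5 shift and the way sites of several groups were joined are not given in the sources used here; each can change the number and the width of sites. The deposited table used here holds positions only (a coordinate of another kind than counts or scores), and 0 columns of single samples were left unused.

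Positions were read as counted from 0 and are printed from 1; 0 sites ended beyond their chromosome. Sequence came from GRCm38.p6 and genes from GENCODE M21, an older release than that of the study. CpG islands were computed outside soft-masked repeats (at least 200 bp, GC over 0.5, observed to expected CpG over 0.6). Bins with under 500000 sequenced bases were left out. Motifs were searched on both strands. The members, gene lists, named genes and alternatives were chosen with earlier results of these data known. Named were the widest sites, densest and sparsest bins, longest chains, bodies richest in sites, Myc, Kmt2d and, per list, the widest promoter site, the body with most sites and up to 2 members without a promoter site; other names were added as examples after their values were seen. A gene that this rule names among the chains and bodies is not reported here. The computations were run in Python 3.11.15 with NumPy 2.4.6, pandas 2.3.3, SciPy 1.17.1, Numba 0.67.0 and Matplotlib 3.10.9. Density, promoter share and median width were tested on sites simulated on chromosome 19. No such check was set for the other measures.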

Additional observations from a re-analysis of the deposited data

How the results depend on the processing

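The density ratio of chromosome 15, 1.66, stayed above 1 in each alternative. It was 1.49 for wide sites (the list's median width or more), 1.21 for promoter sites and 1.81 for the second part of each chromosome. The median width minus the others' median, -66 bp, became -7 bp among the wide sites and -51 bp among distal sites. The promoter share (12.5%) became 19.3% for wide sites, 10.3% and 21.2% with windows of 500 bp and 3 kb, 9.85% with coding starts only and 11.2% by the middle of the site, below the others' median each time. The share of coding genes with a site (80.9%) became 75.0% for wide sites, 91.1% within 5 kb and 75.2% at the outermost start. The AP-1 share (14.2%, others' median 16.7%) became 17.6% for wide sites (still below the others' median), 7.18% in the middle 100 bp (8.81%), 27.2% over the whole site (31.4%) and, chosen after seeing the data, 10.1% for narrow sites (13.7%). Leaving out the patched stretches on every autosome, also chosen afterwards, gave a density ratio of 1.68 and a gene share of 83.1%. The remaining alternatives moved the density ratio and the width difference by less than the SD over the 17 chromosomes. They left the shares inside the Wilson interval of chromosome 15, which is counting error only. The causes of the shifts were not tested. No paired analysis was possible because single replicates have no values here. The list gives no depth and pools all groups, and sites under the authors' threshold are not seen. The 17 chromosomes share libraries, and their spread is not a replicate error.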
